A study of Mus musculus with 11 samples.

Results

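Neurotransmitter receptors were examined in a series on the developing mouse retina, as the genes whose symbols name a subunit of an ionotropic or metabotropic glutamate receptor, a GABA-A or GABA-B receptor, a glycine receptor, or a nicotinic or muscarinic acetylcholine receptor. Of the 13498 genes in the deposited count table, 37 matched, and all 37 kept enough reads to be tested, with 256 to 16019 reads each summed over 11 libraries. They comprised 4 AMPA, 5 kainate, 1 NMDA and 2 delta subunits of glutamate receptors, 3 metabotropic glutamate receptors, 8 GABA-A subunits, 2 GABA-B subunits, 1 glycine receptor subunit, 6 neuronal and 3 muscle-type nicotinic subunits, and 2 muscarinic receptors. The same symbol rule matches 74 genes in GENCODE vM21, so the table holds a part of these families, and the other genes were not analysed here.

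Total RNA came from pairs of dissected retinas of NMRI embryos at E13.5 (embryonic day), and the series compared loss of Six3 and Six6, which encode related homeodomain factors of the eye field and of retinal progenitors. Every group carried floxed Six3 alleles, and every dam received 0.15 mL of tamoxifen at 20 mg/mL on E10.5 and E11.5. The control group was Six3F/F; Six6+/+ with no Cre (WT, 3 libraries), and the Six3 mutant was Six3F/F; CAGGCre-ERTM; Six6+/+ (Six3KO, 3 libraries). The Six6 mutant was Six3F/F; Six6–/– with no Cre (Six6KO, 2 libraries, after its authors removed 1 sample for high duplication), and the double mutant was Six3F/F; CAGGCre-ERTM; Six6–/– (DKO, 3 libraries). CAGGCre-ERTM is a tamoxifen-activated Cre under a widely active promoter, so Six3 was not removed from the retina alone, and Six6 was absent from the germ line on. Cre was present in the Six3KO and DKO groups only, so that loss of Six3 and presence of Cre cannot be told apart in comparisons with WT or Six6KO.

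Fast transmission in the nervous system runs through ligand-gated channels. AMPA, kainate and NMDA receptors pass cations when glutamate binds, nicotinic receptors do so for acetylcholine, and GABA-A and glycine receptors pass chloride. Metabotropic glutamate, GABA-B and muscarinic receptors act through G proteins instead. In the mouse retina, spontaneous waves of activity run on nicotinic transmission from starburst amacrine cells before glutamate takes over, and E13.5 falls in early neurogenesis, when ganglion cells are being born and mature synapses have yet to form.

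As a check of the labels, Six3 stood at 164 to 299 CPM (reads of the gene scaled to equal library size) in WT and 142 to 307 in Six6KO, and at 30.3 to 75.9 in Six3KO and 56.2 to 98.2 in DKO. Six6 stood at 225 to 340 CPM in WT and 168 to 339 in Six3KO, and at 76.8 to 131 in Six6KO and 52.8 to 99.8 in DKO. Depth ran from 7807744 to 16403191 reads per library, and the receptor genes together took 0.0719 to 0.112% of the reads of a library. Summed skeletal muscle markers (20 of 22 in the table, Pax7 and Ckm not used here) stood at 48.0 to 87.8 CPM in WT, 87.9 to 1839 in Six3KO, 2870 to 2995 in Six6KO and 39.5 to 1272 in DKO. All 12 of 12 lens markers were in the table, and they summed to 27.3 to 1143 CPM in WT, 243 to 21133 in Six3KO, 44.4 to 9401 in Six6KO and 8.48 to 177 in DKO. All 16 of 16 periocular mesenchyme markers were in the table too, and they summed to 387 to 2150 CPM in WT, 400 to 4101 in Six3KO, 1728 to 2473 in Six6KO and 55.7 to 130 in DKO, so that every DKO library lay below every other library. Retinal progenitor markers (12 of 12) summed to 4788 to 7465 CPM in WT, where ganglion cell markers (15 of 16) summed to 1898 to 3558 CPM. The progenitor list holds Six3 and Six6, so that their loss by itself lowers its sum in the mutants. In DKO the progenitor markers summed to 2905 to 4310 CPM and the ganglion cell markers to 1427 to 2081 CPM. The single mutants reached as low, with progenitor sums of 2671 to 5564 CPM in Six3KO and 3460 to 5990 in Six6KO. Their ganglion cell sums were 1193 to 3284 CPM in Six3KO and 1451 to 2509 in Six6KO. No marker of these 5 lists was at 0 in every library of a group. The first principal component held 45.9% of the variance, with Six3KO library rh026 (-73.16) and Six6KO library rh020 (-62.65) together at the negative end. At the positive end WT library rh023 (51.05) lay beside DKO libraries rh010 (52.75) and rh021 (52.83), and Six3KO library rh012 (30.63) beside DKO library rh011 (28.98). Single-gene estimates of the groups of rh026 and rh020 are given with and without these libraries. Without rh020 the Six6KO group rests on library rh007 alone.

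Promoter sequences of 3 members whose DKO libraries stood apart from all WT libraries are shown, 1 with higher values in DKO (Gria2) and 2 with lower values (Grm2 and Grik3). Each run is the 250 bases before the gene's start in RefSeq (GRCm38.p6), read 5′ to 3′ on the gene's strand, and capitals mark the letters TTCAGCACC, the left part of the element bound by the repressor REST, which keeps many neuronal genes silent in non-neuronal cells. The windows lie at chr3:80802836-80803085 (minus strand) for Gria2, chr9:106656110-106656359 (minus strand) for Grm2 and chr4:125490446-125490695 (plus strand) for Grik3.
Gria2: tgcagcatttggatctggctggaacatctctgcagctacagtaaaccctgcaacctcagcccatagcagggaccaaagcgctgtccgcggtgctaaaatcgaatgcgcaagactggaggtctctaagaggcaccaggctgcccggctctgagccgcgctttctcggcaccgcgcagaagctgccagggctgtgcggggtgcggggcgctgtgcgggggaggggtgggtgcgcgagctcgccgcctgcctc
Grm2: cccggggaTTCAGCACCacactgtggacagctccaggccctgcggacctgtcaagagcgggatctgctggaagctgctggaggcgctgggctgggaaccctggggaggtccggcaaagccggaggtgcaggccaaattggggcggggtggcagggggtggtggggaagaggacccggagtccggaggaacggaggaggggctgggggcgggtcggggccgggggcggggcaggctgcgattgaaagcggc
Grik3: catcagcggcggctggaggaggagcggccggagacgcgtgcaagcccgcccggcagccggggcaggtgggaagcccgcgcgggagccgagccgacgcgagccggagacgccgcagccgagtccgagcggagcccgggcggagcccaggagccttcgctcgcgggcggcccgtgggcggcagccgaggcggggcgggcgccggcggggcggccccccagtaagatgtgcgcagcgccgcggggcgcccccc
These windows are rich in G and C, at 64.8% in Gria2, 71.2% in Grm2 and 82.0% in Grik3. RefSeq windows matched 30 of the 37 members by symbol, and Gria1, Gria3, Grid1 and Grik1 were among those with no window used here. Both strands were searched for TAATTA, a homeodomain core, for TGATAC, a core bound by Six3 and its relatives, and for TTCAGCACC, which was picked after the sequences had been seen. TAATTA was in 1 of the 30 members' windows (3.33%) and in 4.84% of all 32851 windows. TGATAC was in 0 of the 30 and in 4.64% of all windows, which says only that these letters are not in the windows searched. TTCAGCACC was in 1 of the 30, the Grm2 window, and in 0.301% of all windows. Members were counted once per gene, and all windows were counted singly. A run of bases just after the RefSeq start lay in a GENCODE vM21 transcript of the gene for Gria2 and Grik3, but not for Grm2.

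Levels between genes are set side by side in CPM per kilobase of annotated exons. In WT the nicotinic subunits Chrna3 and Chrna4 stood highest, at 31.6 ± 8.99 and 23.3 ± 7.58 CPM per kb (mean ± SD, n = 3), followed by the kainate subunit Grik5 at 18.0 ± 3.69 and the GABA-B subunit Gabbr1 at 13.6 ± 3.30. Their library values overlapped between neighbours in this order, so that the order is not settled by 3 libraries a group. Members below them included Chrnb4 at 9.20 ± 2.96, Gria4 at 6.73 ± 1.70 and Gabra3 at 5.80 ± 0.475 CPM per kb. Over all 11 libraries the lowest mean per kb was that of the GABA-A subunit Gabrg3, at 0.196. At this stage the subunit that pairs with Chrna3 in ganglionic-type nicotinic receptors, Chrnb4, and the accessory subunit Chrna5 (2.88 ± 0.839 in WT) were thus both present beside Chrna3, and the 3 genes lie next to each other on chromosome 9 between 54980880 and 55048779 (GRCm38, GENCODE vM21).

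**Figure D1:**
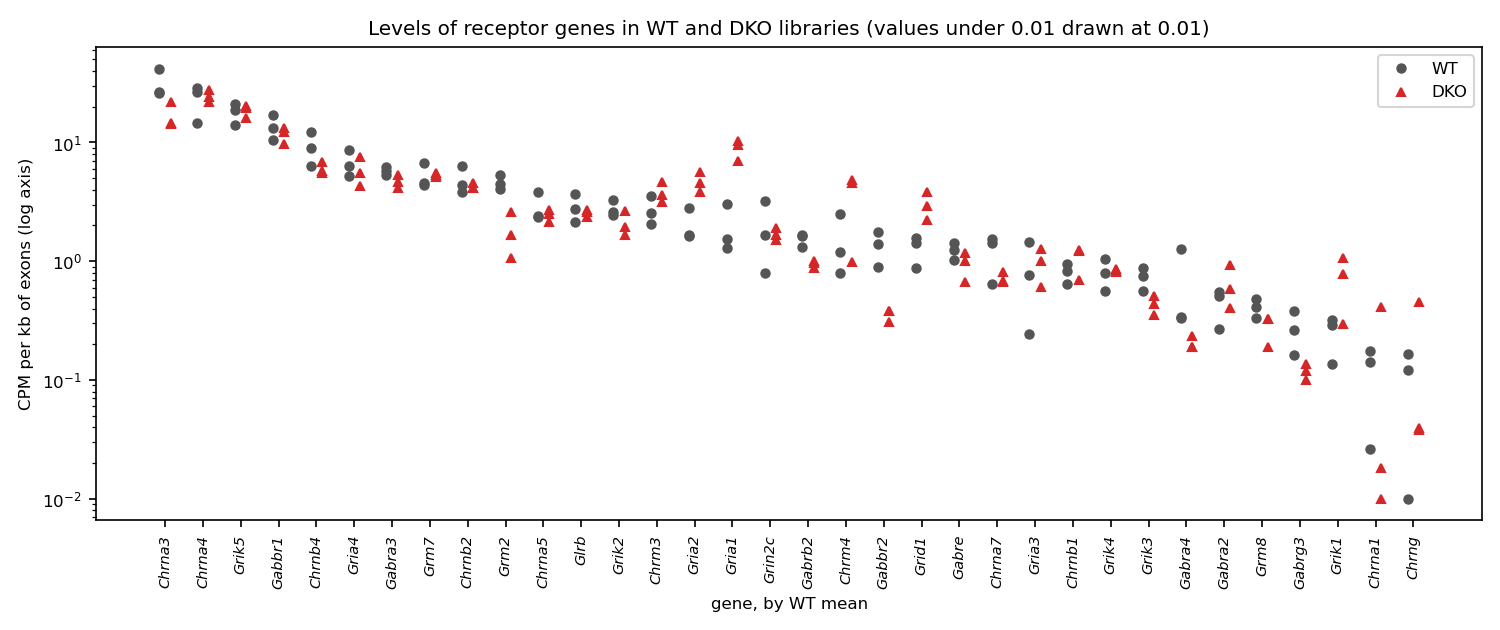
Level of receptor genes (34 drawn) in CPM per kb of exons (log axis) in the 3 WT libraries (circles) and the 3 DKO libraries (triangles), ordered by WT mean. Gria1 stood at 1.97 ± 0.953 in WT and 8.93 ± 1.70 in DKO, and Gabbr2 at 1.34 ± 0.427 and 0.357 ± 0.0435.

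In DKO against WT, the AMPA subunits Gria1 and Gria2 and the delta subunit Grid1 were higher in every DKO library than in any WT library, while Gabbr2, Gabra4, Gabrb2, Gabrg3, Grm2, Grm8, Grik3 and Chrna3 were lower in every DKO library. None of the 37 passed a Benjamini-Hochberg adjusted p under 0.05 over all genes in edgeR's quasi-likelihood test, in which 172 of 13292 genes were called (1.29%). At an unadjusted p under 0.05 there were 12 of 37 members (32.4%), 5 with higher and 7 with lower values in DKO, against 13.0% of all genes tested. DESeq2, run as an alternative, called 6 members (among them Gria1, Gria2 and Grid1 higher and Gabbr2 lower) where it called 5.73% of all genes, and it put 13 members at an unadjusted p under 0.05, beside 14.6% of all genes. Without libraries rh026 and rh020, which enter this comparison only through the shared estimate of spread, edgeR called 283 genes, among them 4 members that included Gria1 (adjusted p = 0.0305), Gria2 (0.0453) and Gabbr2 (0.021), with log2 fold changes that moved by less than their SE. The DKO and WT libraries did not overlap in 4 members that were higher and 9 that were lower in DKO, and among all genes these shares were 9.03% and 8.46%. The members' median log2 fold change was -0.18, and that of all genes tested was -0.00. No comparison below tests the members as a set, and in bulk RNA fewer cells of a type and less RNA per cell cannot be told apart.

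AMPA subunits form the main fast glutamate channel. Gria1 (chromosome 11) stood at 57.3, 62.1 and 42.4 CPM in the DKO libraries, and at 9.30, 7.86 and 18.5 in WT. It stood at 7.18, 13.2 and 21.2 CPM in Six3KO and at 7.54 and 3.85 in Six6KO. All 3 DKO libraries thus lay above all 8 others, and the log2 fold change against WT was 2.19 ± 0.45 (SE; adjusted p = 0.0526). Gria2, the subunit that makes AMPA channels impermeable to calcium once its transcript is edited, stood at 70.4, 87.9 and 59.3 CPM in DKO and at 25.9, 44.1 and 25.6 in WT. Six3KO held 40.8, 38.3 and 21.5 CPM of Gria2, and Six6KO 28.1 and 17.3. The groups again did not overlap, with a log2 fold change of 1.19 ± 0.31 against WT (adjusted p = 0.119). The other AMPA subunits overlapped between DKO and WT. Gria4, the one with the highest level per kb in WT, stood at 27.1, 35.2 and 47.8 CPM in DKO and 40.0, 54.1 and 33.1 in WT (-0.21 ± 0.39). Gria3 stood at 6.03 to 12.5 CPM in DKO within the WT range of 2.43 to 14.2, at a log2 fold change of 0.22 that was 2.78 ± 0.58 with the mesenchyme score as a covariate (adjusted p = 0.0482).

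Delta subunits resemble AMPA and kainate subunits in sequence but serve mainly as adhesion receptors that bind cerebellins. Grid1 stood at 17.3, 22.6 and 13.2 CPM in DKO and 5.24, 8.44 and 9.30 in WT, and its Six3KO libraries, at 8.39, 14.5 and 13.3, reached into the DKO range. Its log2 fold change in DKO against WT was 1.21 ± 0.30 (adjusted p = 0.0933), and in DKO against Six3KO 0.55 ± 0.29 (adjusted p = 0.479), or 0.63 without rh026 and rh020.

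**Figure D2:**
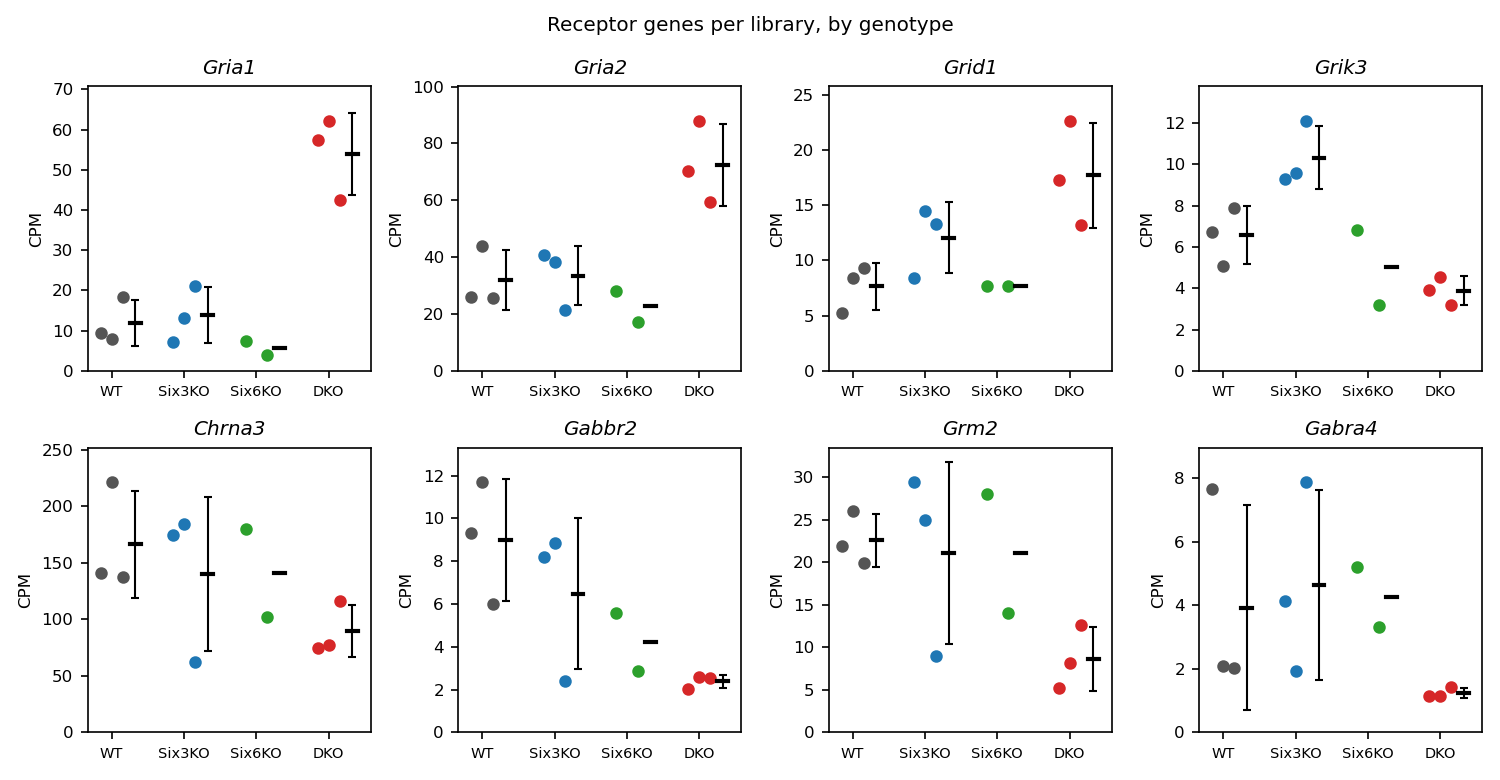
TMM-scaled CPM of 8 receptor genes in each library of the 4 genotypes (points), with the group mean (bar) and SD (error bar, groups of 3). Gria1 and Gria2 were higher in each DKO library than in any other library, and Gabra4 was lower in each DKO library than in any other library.

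Kainate subunits form channels that work on both sides of the synapse. Grik5, the kainate subunit with the highest level per kb, stood at 101, 105 and 82.8 CPM in DKO and 72.3, 97.9 and 110 in WT (0.05 ± 0.16). Grik3 stood at 3.93, 4.56 and 3.17 CPM in DKO, below the 6.72, 5.09 and 7.90 of WT and further below the 9.31, 9.60 and 12.1 of Six3KO. Six6KO held 6.85 and 3.21 CPM of Grik3, so that Six6KO library rh020 fell within the DKO range. The log2 fold change of Grik3 in DKO was -0.76 ± 0.31 against WT (adjusted p = 0.336) and -1.41 ± 0.31 against Six3KO (adjusted p = 0.0867). Grik1 stood at 5.25, 7.12 and 1.98 CPM in DKO and 1.95, 0.925 and 2.17 in WT, so that DKO library rh021 fell within the WT range (1.5 ± 0.51, adjusted p = 0.228). Grik2 and Grik4 overlapped between the groups, with log2 fold changes of -0.41 ± 0.28 and 0.06 ± 0.28. The NMDA subunit in the table, Grin2c, stood at 7.54 to 9.51 CPM in DKO and 3.99 to 16.3 in WT (-0.16 ± 0.51).

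Metabotropic glutamate receptors were represented by Grm2, which in the mature retina marks starburst amacrine cells, and by Grm7 and Grm8, both presynaptic receptors that lower transmitter release. Grm2 stood at 5.16, 8.20 and 12.6 CPM in DKO and 21.9, 26.0 and 19.9 in WT, without overlap (-1.38 ± 0.47, adjusted p = 0.222). Six3KO held 29.4, 25 and 8.98 CPM of Grm2 and Six6KO 28.1 and 14.0, so that Six3KO library rh026 alone reached into the DKO range. Amacrine and horizontal cell markers (14 of 15, Lhx1 not used here) summed to 644 to 793 CPM in DKO, within the 604 to 984 of WT, while their score, the mean log2 CPM of the list relative to the WT mean, was -1.33 to -0.528 in DKO and -0.0968 to 0.0527 in WT. In Six6KO library rh020 the amacrine and horizontal cell sum was 437 CPM and the score -0.697. Photoreceptor precursor markers (10 of 11, Rcvrn not used here) summed to 227 to 264 CPM in DKO and 375 to 553 in WT. They summed to 220 to 462 CPM in Six3KO and 223 to 250 in Six6KO. No marker of either list was at 0 in every library of a group, and the part of these cell types in the Grm2 values was not tested. Exons of Grm2 overlap 470 bases of Gm28111 on the other strand, and with the strand setting of the counting unstated, reads of the 2 genes cannot be told apart. Grm8 was lower in every DKO library (1.89 to 3.25 CPM) than in WT (3.28 to 4.74), at a log2 fold change of -0.53 ± 0.33. Grm7, the metabotropic receptor with the highest level per kb, stood at 30.2, 31.4 and 32.5 CPM in DKO within the 25.9, 39.7 and 27.0 of WT (0.02 ± 0.17).

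GABA-A receptors are assembled mostly from alpha, beta and gamma subunits, and in embryonic neurons their chloride current is often depolarising. Of the 8 GABA-A subunits, 7 had a log2 fold change below 0 in DKO against WT, with a median of -0.67, and 4 had an unadjusted p under 0.05, against 13.0% of all genes. Gabra4, an alpha subunit of receptors outside synapses, stood at 1.15, 1.16 and 1.43 CPM in DKO and 7.66, 2.08 and 2.04 in WT. Its WT libraries were far apart, and the log2 fold change of -1.67 ± 0.64 (adjusted p = 0.289) was -0.72 without WT library rh016. Gabrg3 stood at 1.64, 1.41 and 1.19 CPM in DKO (20, 17 and 15 reads) and 1.95, 3.12 and 4.59 in WT (-1.17 ± 0.45, adjusted p = 0.289). Six6KO held 1.04 and 2.57 CPM of Gabrg3, so that Six6KO library rh007 lay below every DKO library. Gabrb2 stood at 5.63 to 6.39 CPM in DKO and 8.44 to 10.6 in WT, without overlap (-0.69 ± 0.28, adjusted p = 0.32). Others overlapped between DKO and WT: Gabra2 had a log2 fold change of 0.51 ± 0.39, Gabra3 of -0.30 ± 0.17 and Gabre of -0.37 ± 0.28.

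GABA-B receptors need both of their subunits, Gabbr1 to bind GABA and Gabbr2 to couple to the G protein. Gabbr2 stood at 2.05, 2.57 and 2.54 CPM in DKO and 9.30, 11.7 and 5.99 in WT, without overlap. It stood at 8.21, 8.83 and 2.42 CPM in Six3KO and at 5.57 and 2.89 in Six6KO, so that libraries rh026 and rh020 lay near the DKO level. The log2 fold change in DKO against WT was -1.91 ± 0.49 (adjusted p = 0.11), and without rh026 and rh020 it was -1.91 with an adjusted p of 0.021. Gabbr1, the better expressed partner, stood at 94.9, 104 and 75.6 CPM in DKO and 81.4, 132 and 103 in WT, with overlap (-0.21 ± 0.25). Glrb, the beta subunit that anchors glycine receptors to gephyrin, stood at 12.1, 11 and 12.7 CPM in DKO within the 17.1, 9.94 and 12.7 of WT (-0.16 ± 0.28).

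Neuronal nicotinic receptors combine alpha and beta subunits, or Chrna7 alone. Chrna3 had the highest mean level per kb of the receptor genes over all 11 libraries, though not in DKO. It stood at 74.9, 77.5 and 116 CPM in DKO and 141, 221 and 137 in WT, without overlap. Its log2 fold change was -0.89 ± 0.41 (adjusted p = 0.398), while Six3KO held 175, 184 and 61.8 CPM and Six6KO 180 and 102. Libraries rh026 and rh020 were thus the lowest of their groups for Chrna3, as they were for Gria4, Gabbr1, Chrna4, Chrna5, Chrnb2 and Chrnb4. The neighbouring Chrnb4 stood at 20.7 to 25.6 CPM in DKO and 23.7 to 45.7 in WT (-0.60 ± 0.39), and Chrna5 at 6.64 to 8.37 and 7.39 to 12 (-0.24 ± 0.47). Chrna4, which pairs with Chrnb2 in the most abundant nicotinic receptor of the brain, had a log2 fold change of 0.08 ± 0.40, Chrnb2 of -0.18 ± 0.42 and Chrna7 of -0.73 ± 0.40. Exons of Chrnb2 overlap 1365 bases of Adar on the other strand. Of the muscarinic receptors, Chrm3, which couples to phospholipase C, stood at 19.8 to 28.9 CPM in DKO and 12.8 to 22.3 in WT (0.48 ± 0.31). Chrm4, which inhibits adenylyl cyclase, stood at 6.56, 6.96 and 1.43 CPM in DKO and 1.72, 1.16 and 3.57 in WT (1.22 ± 0.77), and the groups overlapped.

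The DKO libraries were also the lowest in periocular mesenchyme markers, as given above. Their scores (-3.465 to -2.472) lay below that of every other library, the nearest being WT library rh023 at -2.4. DKO and WT thus share no range of scores, and a fit with this covariate cannot separate mesenchyme content from genotype. With the mesenchyme score as a covariate, the log2 fold change in DKO against WT was 2.69 ± 0.54 for Gria1 (adjusted p = 0.0438) and -2.57 ± 0.51 for Gabbr2 (adjusted p = 0.0405), and Gria3 was called too, at the value given above. It was 0.72 ± 0.32 for Gria2 (adjusted p = 0.299) and -0.25 ± 0.57 for Gabra4 (adjusted p = 0.902). WT library rh023, whose mesenchyme sum of 387 CPM was the lowest of the WT group, held 7.86 CPM of Gria1, the lowest WT value, and 44.1 CPM of Gria2, the highest WT value. These values cannot settle the part of tissue composition in the differences, which was not tested further.

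DKO was also set against each single mutant. In DKO against Six3KO none of the 37 members passed the edgeR test, in which 0.587% of all genes were called, and 11 members (29.7%) had an unadjusted p under 0.05, 3 higher and 8 lower, against 13.2% of all genes. DESeq2 called 6 members there (among them Gria1 and Gria2 higher, Grik3 and Chrng lower) with 5.77% of all genes called, and put 11 at an unadjusted p under 0.05, beside 14.6% of all genes. The log2 fold change was 1.97 ± 0.44 for Gria1 (adjusted p = 0.0924) and 1.11 ± 0.31 for Gria2 (adjusted p = 0.151). Without rh026 and rh020 it was 2.41 for Gria1, 0.88 for Gria2 and -1.28 for Grik3. In DKO against Six6KO none passed the edgeR test either, at 0.233% of all genes, and 11 (29.7%) had an unadjusted p under 0.05, 5 higher and 6 lower, against 14.8% of all genes. DESeq2 called 5 members there (among them Gria1, Gria2 and Grid1 higher, Chrnb1 lower) with 4.98% of all genes called, and put 11 at an unadjusted p under 0.05, beside 16.7% of all genes. Gria1 had a log2 fold change of 3.24 ± 0.56 (adjusted p = 0.0602) and Gria2 of 1.68 ± 0.37 (adjusted p = 0.108). Without rh026 and rh020 these were 2.86 and 1.39, with library rh007 alone in Six6KO. These comparisons share the DKO libraries with the one against WT, so that they are not separate evidence.

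Loss of either gene alone left no member past the edgeR test. In Six3KO against WT 0.00752% of all genes were called, and 4 members (10.8%) had an unadjusted p under 0.05 against 3.50% of all genes, namely Chrng, Chrnb1 and Grik1 with higher and Gabra3 with lower values. DESeq2 called none of the members and put 6 at an unadjusted p under 0.05, beside 3.89% of all genes. Gabra3, an X-linked alpha subunit, stood at 15.9, 19.1 and 12.4 CPM in Six3KO and 22.7, 24.6 and 20.9 in WT (-0.53 ± 0.17, adjusted p = 1), and the estimate was -0.39 without rh026 and rh020. In Six6KO against WT 0% of all genes were called, and 3 members (8.11%) had an unadjusted p under 0.05 against 3.90% of all genes, among them Chrnb1 and Chrng with higher values. DESeq2 again called none of the members and put 5 at an unadjusted p under 0.05, beside 4.43% of all genes. The members' median log2 fold change was 0.04 in Six3KO and -0.14 in Six6KO, beside -0.01 and 0.01 for all genes. These 2 comparisons share the WT libraries.

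**Figure D3:**
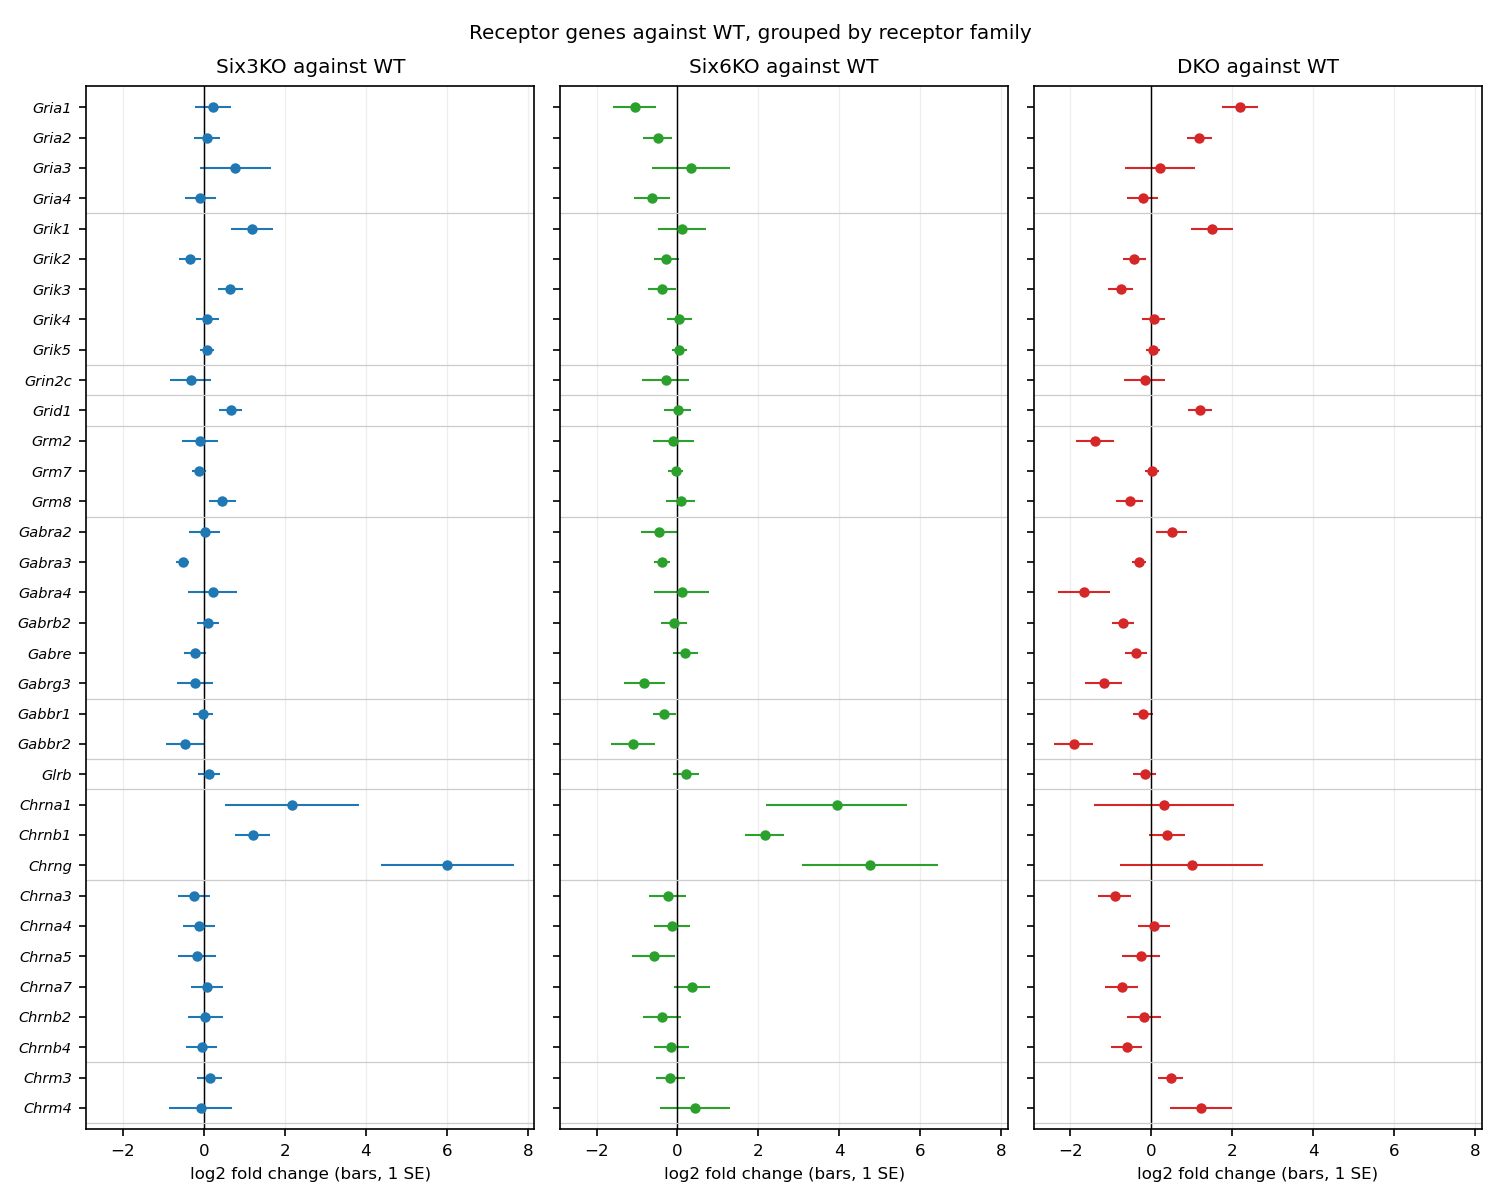
Log2 fold change against WT (points) with 1 SE (bars) of receptor genes in Six3KO, Six6KO and DKO, on 1 shared axis (34 genes drawn), with grey lines between receptor families. In DKO, Gria1, Gria2, Grid1, Grik1 and Chrm4 lay above 1 and Gabbr2, Gabra4, Grm2 and Gabrg3 below -1, and in the single mutants the widest departures were those of the muscle-type nicotinic subunits.

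Muscle-type nicotinic subunits form the acetylcholine receptor of the neuromuscular junction, in which Chrng is the gamma subunit of the fetal form. Chrng stood at 0, 0.694 and 0.510 CPM in WT, at 0.973, 42.0 and 30.1 in Six3KO, at 3.25 and 16.9 in Six6KO and at 0.164, 1.90 and 0.159 in DKO. Its values were thus high in Six3KO libraries rh012 and rh026 and in Six6KO library rh020, the 3 libraries with the highest lens marker sums, at 21133, 16954 and 9401 CPM. In library rh012 the skeletal muscle markers summed to 87.9 CPM, close to the WT range. Against WT the log2 fold change of Chrng was 6.02 ± 1.65 in Six3KO (adjusted p = 1) and 4.75 ± 1.68 in Six6KO (adjusted p = 0.991). With the lens score as a covariate, chosen after seeing the data, the value in Six3KO was 2.36. Without rh026 and rh020 it was 5.83 in Six3KO and 3.09 in Six6KO, where library rh007 alone was left.

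Chrnb1, the muscle beta subunit, stood at 1.64, 2.08 and 2.42 CPM in WT and at 3.35, 3.26 and 7.57 in Six3KO. It stood at 6.27 and 11.9 CPM in Six6KO and at 3.11, 3.15 and 1.74 in DKO. All Six6KO libraries lay above all WT libraries, with a log2 fold change of 2.15 ± 0.48 (adjusted p = 0.991). It was 1.17 with the skeletal muscle score as a covariate, and 1.59 without library rh020, which left library rh007 alone. The Six6KO muscle scores (4.99 and 5.63) lay above all WT scores (-0.75 to 0.51), so that the covariate cannot separate muscle content from genotype here. In Six3KO the log2 fold change of Chrnb1 was 1.20 ± 0.44 (adjusted p = 1), and 0.69 without library rh026. Chrna1, the muscle alpha subunit, stood at 3.48 and 12.2 CPM in Six6KO, whose muscle marker sums were the highest of the series, and at 6.56 CPM in Six3KO library rh026, where that sum was 1839 CPM. In the remaining 8 libraries Chrna1 stood between 0 and 1.82 CPM, the top value being that of DKO library rh011, where the muscle sum was 1272 CPM. Beyond these covariate values, the part of muscle or lens RNA in the Chrna1, Chrnb1 and Chrng values was not tested.

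**Figure D4:**
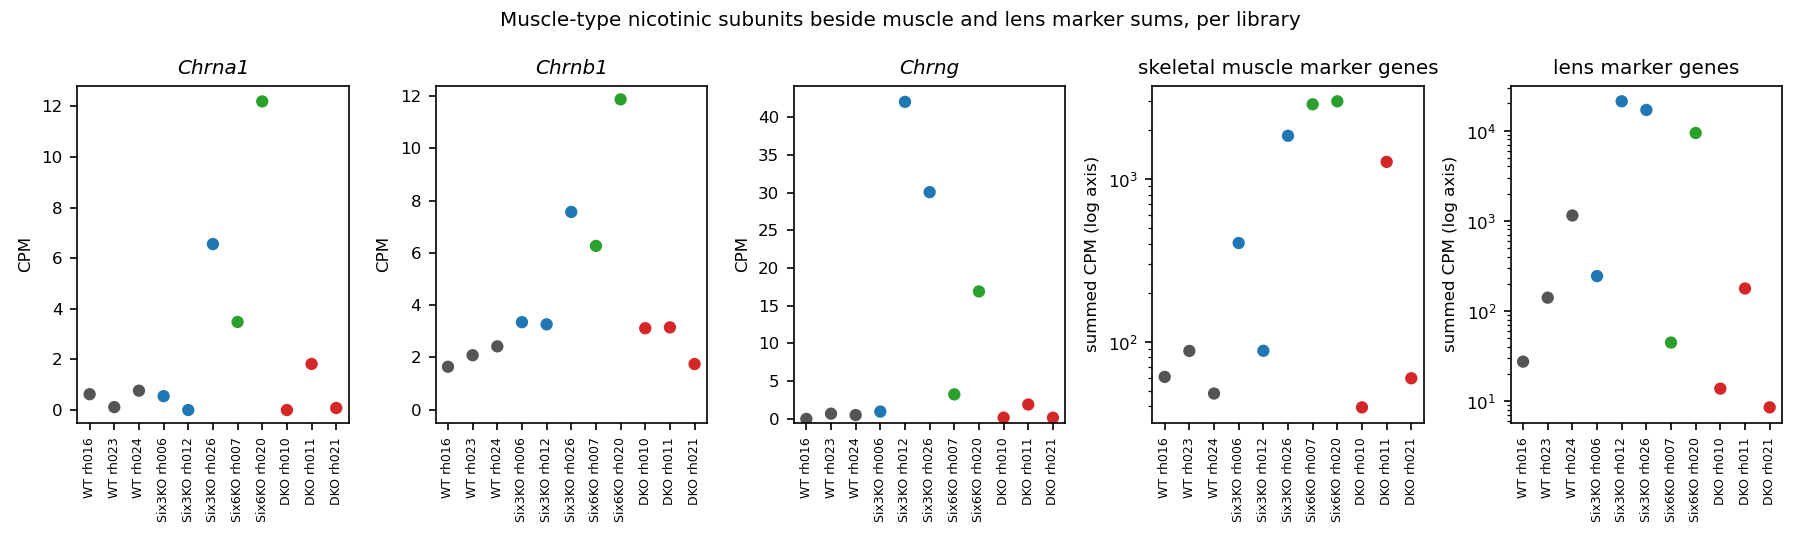
CPM of Chrna1, Chrnb1 and Chrng in each of the 11 libraries, beside the summed CPM of skeletal muscle and lens markers (log axes). Chrna1 and Chrnb1 were highest in Six6KO library rh020 (12.2 and 11.9 CPM), and Chrng in Six3KO library rh012 (42.0 CPM), which had the highest lens marker sum.

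Whether joint loss differed from both single losses added together was asked on the log2 scale, as DKO minus Six3KO, minus Six6KO plus WT (the departure). No gene passed the edgeR test (0% of 13292), 7 members had an unadjusted p under 0.05 against 9.99% of all genes, and DESeq2 called 3 members (Gria1 higher, Chrnb1 and Chrng lower) with 1.79% of all genes called, and put 9 members at an unadjusted p under 0.05, beside 11.4% of all genes. The departure was 3.02 ± 0.69 for Gria1 (adjusted p = 0.336) and 1.60 ± 0.47 for Gria2 (adjusted p = 0.339). It was -2.97 ± 0.64 for Chrnb1 (adjusted p = 0.32) and -9.77 ± 2.23 for Chrng (adjusted p = 0.336). Without rh026 and rh020, with library rh007 alone in Six6KO, it was -1.90 for Chrnb1, -7.94 for Chrng, 3.08 for Gria1 and 1.08 for Gria2. In Chrnb1 and Chrng the single-mutant libraries with high muscle or lens markers enter with a negative sign.

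Genes that serve these transmitters were taken from 3 lists of synthesis enzymes, transporters and receptor partners. Of 29 glutamate partners tested none passed the edgeR test in DKO against WT, and 8 had an unadjusted p under 0.05, 2 higher and 6 lower. Of 19 GABA and glycine partners 1 rose and none fell, with 6 at an unadjusted p under 0.05, and of 12 acetylcholine partners 1 fell and none rose, with 4 at an unadjusted p under 0.05. The background shares are the 1.29% and 13.0% of all genes given above.

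Slc6a13, a GABA and taurine transporter also called GAT2, rose in DKO. It stood at 16.3, 15.2 and 11.1 CPM in DKO and 4.38, 2.54 and 5.86 in WT, and at 4.26, 5.38 and 4.94 in Six3KO and 5.34 and 6.31 in Six6KO. Every DKO library lay above all 8 others, with a log2 fold change of 1.74 ± 0.30 against WT (adjusted p = 0.0307). The adjusted p was 0.167 without DKO library rh010, 0.151 without DKO library rh011, 0.0585 without Six3KO library rh006, 0.108 without WT library rh016, 0.0654 without WT library rh023 and 0.0564 in a fit on DKO and WT alone.

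Lypd1, a membrane-anchored protein of the Ly6 family that binds nicotinic receptors and dampens them, fell in DKO. It stood at 1.39, 1.49 and 2.93 CPM in DKO and 8.83, 9.48 and 8.79 in WT, and at 10.8, 9.89 and 8.27 in Six3KO and 4.87 and 7.81 in Six6KO. Every DKO library lay below all 8 others. The log2 fold change was -2.21 ± 0.32 against WT (adjusted p = 0.0182), -2.31 ± 0.32 against Six3KO (adjusted p = 0.0176) and -1.70 ± 0.35 against Six6KO (adjusted p = 0.0929). Against WT the adjusted p was 0.105 without DKO library rh010, 0.106 without DKO library rh011, 0.0517 without WT library rh016 and 0.0502 without WT library rh023. Against Six3KO it was 0.111 without rh010, 0.116 without rh011, 0.0679 in a fit on both groups alone and 0.229 with the lens score as a covariate. Without rh026 and rh020 the log2 fold change was -2.40 against Six3KO and -1.30 against Six6KO, which then held library rh007 alone. Exons of Lypd1 overlap 1202 bases of Gpr39 on the other strand.

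Its relative Lypd6 stood at 8.44, 9.52 and 8.40 CPM in DKO and 22.4, 16.1 and 31.1 in WT (-1.40 ± 0.39, adjusted p = 0.137). Gabrp, the pi subunit of GABA-A receptors, which the symbol rule does not cover, stood at 0.656, 3.64 and 5.15 CPM in DKO and 28.2, 13.6 and 25.1 in WT (-2.82 ± 0.67, adjusted p = 0.088). Slc1a3, the glutamate transporter GLAST of retinal progenitors and Müller glia, stood at 35.9, 25.2 and 52.9 CPM in DKO and 111, 147 and 68.4 in WT (-1.52 ± 0.35, adjusted p = 0.0803). Its Six3KO libraries, at 53.0, 63.9 and 38.6 CPM, also lay below WT. Glul, the glutamine synthetase that recycles glutamate, differed less, at 262, 246 and 262 CPM in DKO and 351, 319 and 302 in WT (-0.34 ± 0.09, adjusted p = 0.122). The single mutants also lay below every WT library in Glul, at 275, 265 and 248 CPM in Six3KO and 283 and 294 in Six6KO. None of these 4 passed the edgeR test, though their DKO and WT libraries did not overlap, and DESeq2 called all 4 lower (adjusted p = 0.0215 for Lypd6, 0.00059 for Gabrp, 0.000599 for Slc1a3 and 0.000644 for Glul). In edgeR, Lypd6 also passed in a fit on DKO and WT alone (adjusted p = 0.0493) and Slc1a3 with the mesenchyme score as a covariate (adjusted p = 0.0309). Over the 20 alternatives the log2 fold change of Lypd6 ran from -1.6 to -0.53 (adjusted p up to 0.468). That of Gabrp ran from -3.37 to -1.79 (adjusted p up to 0.297). Lypd6 and Gabrp were lowest of their group in WT library rh023 and Six3KO library rh012, which had these groups' lowest mesenchyme sums. In Six6KO both were lower in rh007, which had the higher mesenchyme sum. Beyond the covariate fits, which have the limit given above, the part of tissue composition was not tested.

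**Figure D5:**
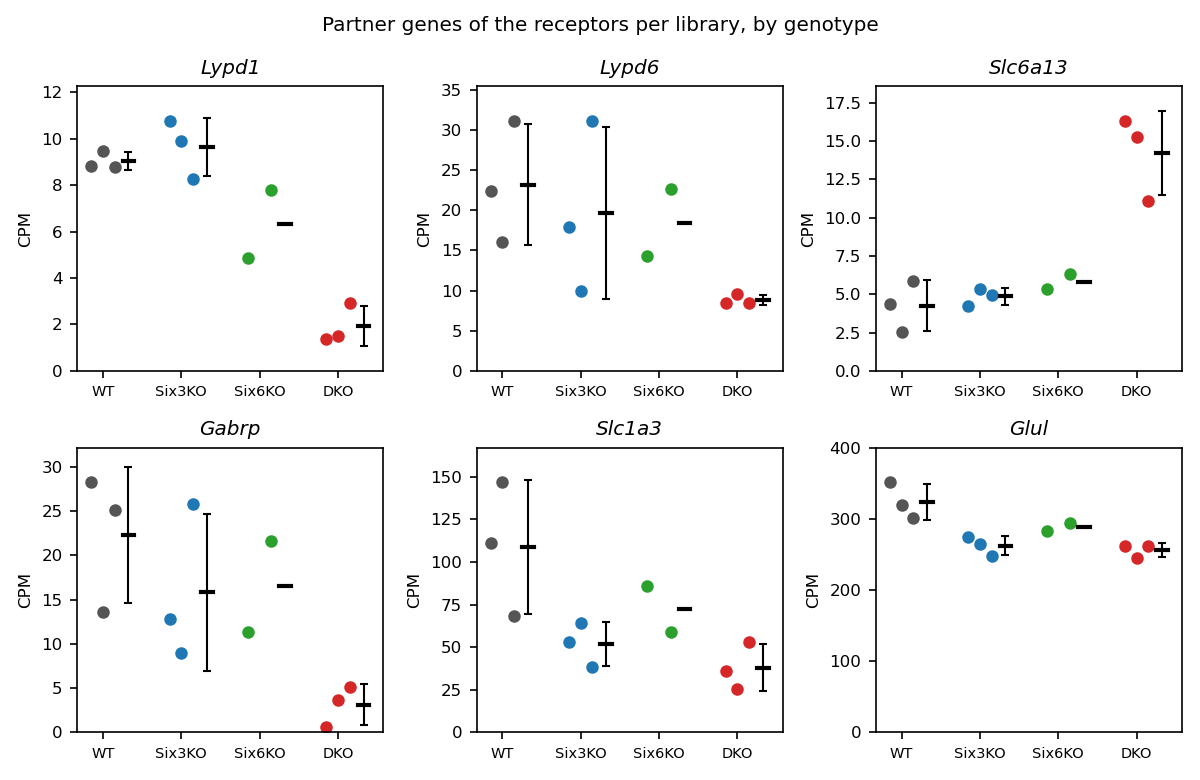
TMM-scaled CPM of 6 partner genes in each library of the 4 genotypes (points), with the group mean (bar) and SD (error bar, groups of 3). Lypd1 lay between 1.39 and 2.93 in DKO and between 8.79 and 9.48 in WT, and Slc6a13 between 11.1 and 16.3 in DKO and between 2.54 and 5.86 in WT.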

How the data were processed

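The authors deposited raw read counts per gene symbol, in 1 table with a column for each library. The submitters' processing notes list Trim Galore 0.3.7, TopHat2 2.0.13 with genome build mm10, HTSeq 0.6.1, Cufflinks 2.2.1 and Cuffdiff. Neither the annotation nor the strand setting is stated there, so 13 members whose exons overlap another gene's may hold reads of that gene. Ribosomal RNA was removed before library preparation, per the labels.

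The fits were made with edgeR 4.0.16 in R 4.3.3. Genes kept by filterByExpr (minimum count 10) numbered 13292, and libraries were scaled by TMM. All 11 libraries entered 1 robust quasi-likelihood fit with a mean per group, and a Benjamini-Hochberg adjusted p under 0.05 over all genes was the call. CPM is TMM-scaled, and each standard error is the absolute estimate over the root of its F value. Replicates are separate pairs of retinas, per the design text, and every replicate pair differed by more than counting error. A marker score is the mean log2 CPM of a list (prior count 2). Alternatives were relative log expression factors, no TMM factor, no filter, DESeq2 1.42.0, the compared groups alone, each library left out, and muscle or mesenchyme scores as covariates. Chosen after seeing the data were the lens score and a fit without libraries rh026 and rh020. The fit was tested on simulated data.

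Members and lists were chosen with earlier results of these data known. Values per library are given for the 10 members of lowest p in DKO against WT and the 3 in each other comparison, for the member of each family with the highest mean per kb, and for partner genes called or among the 2 of lowest p in a list. Other members named in full were chosen after their values were seen. Positions and exon lengths are from GENCODE vM21, in which all 37 members matched a single gene. The values of 3 members are not reported here, and these members are left out of the figures but kept in every count.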

Additional observations from a re-analysis of the deposited data

Results flagged for a closer look

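In 3 receptor genes every library of a group moved one way when Six3 or Six6 was lost in the presence of the other, and every library moved the opposite way when it was lost in the absence of the other. For loss of Six6 these were Chrnb1 and Gria1, and for loss of Six3 they were Chrnb1 and Chrng. Among all 13292 genes such opposite moves were seen in 236 (1.78%) for loss of Six6 and in 120 (0.903%) for loss of Six3. The difference between the effects was tested as DKO minus Six3KO, minus Six6KO plus WT, and none passed after adjustment in edgeR.

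Chrnb1 was higher in both Six6KO libraries than in WT and lower in all 3 DKO libraries than in Six3KO, and it was also higher in Six3KO than in WT and lower in DKO than in Six6KO. The difference was -2.97 on the log2 scale for either loss (adjusted p = 0.32). The largest DKO value of Chrnb1, 3.15 CPM, lay close to the smallest Six3KO value, 3.26. Chrng was higher in Six3KO than in WT and lower in DKO than in Six6KO, with a difference of -9.77 (adjusted p = 0.336). The smallest Six3KO value of Chrng, 0.973 CPM, lay close to the largest WT value, 0.694. The muscle and lens marker sums of the same libraries stand beside Chrnb1 and Chrng in the report. Gria1 was lower in Six6KO, at 7.54 and 3.85 CPM, than in any WT library, at 7.86 to 18.5, and higher in DKO than in Six3KO, with a difference of 3.02 (adjusted p = 0.336). The largest Six6KO value of Gria1 lay close to the smallest WT value.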

How the results depend on the processing

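In 20 alternatives, 41 named estimates gave 816 values, of which 746 kept their direction and side of the threshold, 42 passed it newly, 14 no longer passed and 14 changed sign. Members called in DKO against WT numbered 0 in edgeR and 2 with no TMM factor (Gria1 among them), 6 in DESeq2, 3 in the compared groups alone, 1 with the muscle score, 3 with the mesenchyme score, 1 with the lens score and 4 without rh026 and rh020. Leaving out each library gave 0 to 3, with 1 without Six3KO library rh012 and 3 without Six3KO library rh026 (Gabbr2 and Gria1 among them). DKO against Six3KO gave 6 members in DESeq2. DKO against Six6KO gave 5 in DESeq2, 4 in the compared groups alone and 0 to 1 with each library left out. The departure gave 3 in DESeq2. Genes called of all tested moved from 172 in DKO against WT to 769 in DESeq2, 283 without rh026 and rh020, 110 with the lens score and 20 to 279 with each library left out. In DKO against Six3KO 78 became 775 in DESeq2, 35 with the muscle score, 0 with the lens score, 37 without rh026 and rh020 and 16 to 93 with each library left out. In DKO against Six6KO 31 became 669 in DESeq2, 682 in the compared groups alone, 1 with the muscle score, 1 with the mesenchyme score, 2 with the lens score, 4 without rh026 and rh020 and 1 to 77 with each library left out. Fits without rh020 or without rh007 leave 1 Six6KO library, so that their values for that group have no replicate. The cause of these shifts was not tested. Some estimates in DKO against WT changed sign, none of them called. With the mesenchyme score these were Chrm3 at -0.0097, Glrb at 0.46, Grik5 at -0.0796 and Grm7 at -0.31, and with the muscle score Grin2c at 0.13. Leaving out each library gave Chrng, at 1.0 in all libraries, -1.12 (rh011) to 1.78, Grik5 -0.108 (rh016) to 0.176, also -0.0165 (rh011), and Grm7 -0.0895 (rh016) to 0.246, also -0.0022 (rh021) and -0.0632 (rh024). It gave Glrb -0.325 to 0.075 (rh016), Gria4 -0.445 to 0.0036 (rh023) and Grin2c -0.538 to 0.466 (rh024). Gria1 in DKO against WT ranged from 1.97 to 2.69 (adjusted p 0.000135 to 0.218). No paired analysis was possible because the columns carry a group and a library name but no replicate number. On counts simulated at this depth for DKO against WT (13263 genes), the fit recovered 37.3% of 2-fold, 76.1% of 4-fold and 87.9% of 8-fold changes. It also called 12 genes that had not been changed.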
